A study of Mus musculus with 44 samples.

Results

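Livers of mice labelled as lacking either of the proteins that carry out necroptosis were compared directly after both had been kept on the same choline-deficient high-fat diet. The comparison used 7 of the 44 liver RNA sequencing libraries of the study, chosen by genotype and diet in the labels: 3 MlklKO libraries (Mlkl-/-, replicates 1, 2 and 4) and 4 Ripk3KO libraries (Ripk3-/-, replicates 1, 2, 3 and 5), all on that diet (CD-HFD). The mice entered the diets at 2 months of age and stayed on them for 6 months. The other groups were 6 wild-type (WT) libraries on each of the 3 diets, and on normal chow (control) and the choline-deficient low-fat diet (CD-LFD) the knockouts had 6 and 4 MlklKO and 6 and 3 Ripk3KO libraries. How the knockout alleles were made is not given in the sources used here. The labels name no strain background, sex, litter or batch, and do not state that each library is a separate animal, so the p-values measure only the spread between these libraries.

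Necroptosis is a lytic, inflammatory form of programmed cell death. Death receptors, Toll-like receptors or the nucleic acid sensor ZBP1 bring the kinase RIPK3 into an active complex, RIPK3 phosphorylates the pseudokinase MLKL, and MLKL then disrupts the plasma membrane. RIPK3 also signals without MLKL, in inflammasome activation and cytokine production, so a comparison of the knockouts asks which transcripts differ when the pathway is lost at the kinase rather than at the executioner. A choline-deficient diet limits phosphatidylcholine synthesis and lipoprotein export, and the liver fills with fat, becomes inflamed and scars.

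The 7 libraries held 4854689 to 9915047 counts. All 7 had at most 0.50 CPM (counts scaled to a common library total) of Xist and 33.4 to 44.2 CPM of the Y-linked gene Ddx3y. The log2 ratio of the clock genes Arntl and Dbp lay between -6.27 and -5.57 in Ripk3KO and between -6.10 and -5.19 in MlklKO livers. Summed hepatocyte markers, among them albumin and transthyretin, came to 61370 to 88270 CPM in Ripk3KO and 68460 to 91220 CPM in MlklKO livers. A library of each group stood apart. The library labelled MlklKO replicate 1 had an Mlkl level near that of the Ripk3KO livers, so its genotype label is in doubt and could not be checked further. It is called by its label, and values without it are given beside many of the results on gene lists. Ripk3KO replicate 1 held 1233 CPM of Mir6236 and 193 CPM of Gm15564, which were at most 17.2 and 3.75 CPM in the other 3 Ripk3KO libraries. Both genes were looked up after their values had been seen.

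The targeted genes were read first in each library, as CPM scaled by TMM, a factor that evens out library composition. Ripk3 (ENSMUSG00000022221, chromosome 14) was at 0.17, 0, 0 and 0.09 CPM in Ripk3KO replicates 1, 2, 3 and 5. It was at 1.74, 3.26 and 2.67 CPM in MlklKO replicates 1, 2 and 4, and at 2.34 to 4.44 CPM in the 6 WT livers on CD-HFD. All Ripk3KO values lay under the floor of 3 counts in their smallest library (0.499 CPM), so Ripk3 was at least 5.12-fold higher in MlklKO than in Ripk3KO livers. The adjusted p was 0.000694 (edgeR's quasi-likelihood F test, Benjamini-Hochberg). Ripk3 counts thus went with the genotype labels in all 7 libraries.

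Mlkl (ENSMUSG00000012519, chromosome 8) was at 12.5 CPM in MlklKO replicate 1, 4.83 CPM in replicate 2 and 2.80 CPM in replicate 4. The Ripk3KO livers held 13.98, 13.93, 20.46 and 14.5 CPM and the WT livers 14.3 to 17.7 CPM. All 3 MlklKO values lay below all 4 Ripk3KO values, but the first of them sat close to the lowest, and the log2 difference of -1.26 ± 0.31 (SE) had an edgeR adjusted p of 0.321. DESeq2, with all libraries kept, called Mlkl (log2 -1.28, adjusted p = 0.0428). Without the library labelled MlklKO replicate 1 the edgeR log2 difference was -2.04, a value given with no test because that library was singled out by its Mlkl counts. On CD-LFD the 4 MlklKO livers held 2.98 to 4.15 CPM of Mlkl against 9.49 to 15.2 CPM in the 3 Ripk3KO livers, so Mlkl counts were also present in those knockout livers, and MlklKO replicate 1 on CD-HFD was above their range.

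**Figure D1:**
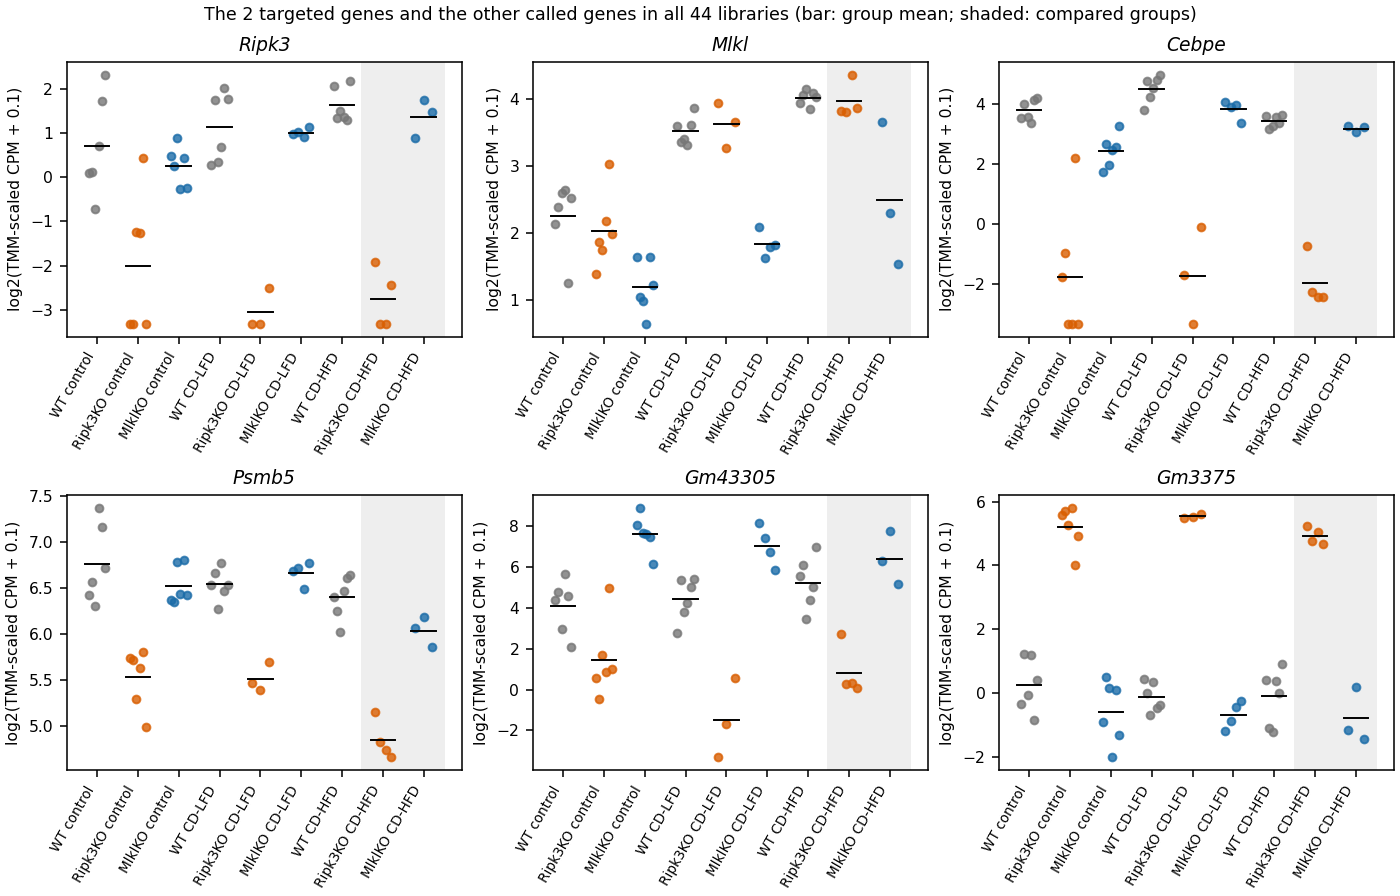
Levels of Ripk3, Mlkl and the other 4 called genes in all 44 libraries, as log2 of TMM-scaled CPM plus 0.1, by genotype and diet (each point a library, each bar a group mean, the compared groups shaded). Ripk3, Cebpe, Psmb5 and Gm43305 are low and Gm3375 is high in the Ripk3KO groups on CD-HFD, and 1 MlklKO point for Mlkl lies near the Ripk3KO points.

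Transcripts that passed the test were few. Among 14862 tested genes, those with an adjusted p below 0.05 numbered 5 (0.0336%) and are referred to as called. Ripk3, Cebpe, Psmb5 and Gm43305 (4 genes, 0.0269%) were higher and Gm3375 (1 gene, 0.00673%) was lower in MlklKO than in Ripk3KO livers. Against WT livers on CD-HFD, 0 genes (0%) were called in MlklKO, with 1246 at an unadjusted p under 0.05, and 56 (0.377%) in Ripk3KO livers. An unadjusted p under 0.05 was found for 595 genes (4% of those tested), 327 with a positive and 268 with a negative difference. Groups that did not overlap were found for 1515 genes (10.2%), 5.19% with MlklKO above and 5% with MlklKO below. The median log2 difference over all tested genes was 0.01. Without the library labelled MlklKO replicate 1 the same 5 genes were called. Mlkl was a sixth call there (6 of 15337 tested, 0.0391%), but that library was singled out by its Mlkl counts, so this call is no result. Leaving out MlklKO replicate 2 gave the fewest calls, 3, namely Ripk3, Cebpe and Gm3375. With all libraries kept, DESeq2 called 9 genes and an edgeR fit of only the compared groups 12, each including the 5. The mean Spearman correlation of a MlklKO library was 0.972 to 0.978 with its own group and 0.973 to 0.980 with the Ripk3KO group, and that of a Ripk3KO library was 0.980 to 0.986 with its own and 0.969 to 0.981 with the MlklKO group. These correlations are across genes, which are not independent replicates.

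Cebpe (ENSMUSG00000052435), a C/EBP family transcription factor best known from granulocyte maturation, was at 9.40, 8.22 and 9.20 CPM in MlklKO replicates 1, 2 and 4. It was at 0.50, 0.11, 0.09 and 0.09 CPM in Ripk3KO replicates 1, 2, 3 and 5, which is 1 to 3 counts a library. The 2 groups were separated by a wide gap, and the difference was at least 17.9-fold (edgeR adjusted p = 5.83e-06). WT livers on CD-HFD held 8.77 to 12.3 CPM. Cebpe was lower in Ripk3KO than in WT livers (edgeR adjusted p = 2.32e-07), and the MlklKO livers differed from WT by a log2 difference of -0.26 (edgeR adjusted p = 0.865). These 2 comparisons share the WT libraries.

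Psmb5 (ENSMUSG00000022193) encodes the proteasome subunit with chymotrypsin-like activity. It was at 35.5, 28.4, 26.7 and 25.2 CPM in the Ripk3KO livers and at 67.0, 72.7 and 58.1 CPM in the MlklKO livers. That is 2.28-fold higher in MlklKO, a log2 difference of 1.19 ± 0.20 (SE, edgeR adjusted p = 0.0016). WT livers held 65.1 to 100.1 CPM, against which the Ripk3KO livers were lower by a log2 difference of -1.56 (adjusted p = 2.32e-07) and the MlklKO livers differed by -0.37 (edgeR adjusted p = 0.587). The call in MlklKO against Ripk3KO was lost without MlklKO replicate 2 (edgeR adjusted p = 0.0899).

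Both remaining called genes are non-coding in GENCODE M21, and counts of a pseudogene can share reads with its parent gene, so their levels are less certain. Gm43305, a processed transcript on chromosome 14, was at 78.5, 215.2 and 36.2 CPM in MlklKO replicates 1, 2 and 4. It was at 6.49, 1.10, 1.14 and 0.94 CPM in the Ripk3KO livers. The log2 difference was 5.68 ± 0.998 (SE, edgeR adjusted p = 0.00329), with WT livers between 10.8 and 126 CPM. Its call was lost when Ripk3KO replicate 3 or 5 or MlklKO replicate 2 was left out (edgeR adjusted p = 0.0571, 0.0592 and 0.115). Gm3375, a processed pseudogene on chromosome 7, went the other way, with 37.5, 27.0, 32.7 and 25.3 CPM in Ripk3KO and 0.35, 1.04 and 0.27 CPM in MlklKO livers. The log2 difference was -5.71 ± 0.49 (SE, edgeR adjusted p = 1.68e-10), and WT livers on CD-HFD held 0.33 to 1.75 CPM. In the same Ripk3KO livers Psmb5 was at similar levels, 35.5, 28.4, 26.7 and 25.2 CPM. Its fall and the rise of Gm3375 may therefore not be separate changes. Whether the 2 genes share reads was not tested.

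All 5 called genes differed in the same direction between the knockouts on the other diets, although Ripk3 missed the threshold on the control diet. On CD-LFD all 5 were called (edgeR adjusted p from 1.12e-13 for Gm3375 to 0.0193 for Ripk3). Ripk3 was there at 0, 0 and 0.08 CPM in Ripk3KO and at 1.76 to 2.09 CPM in MlklKO livers, Cebpe at 0 to 0.83 against 10.3 to 16.5 CPM, and Gm43305 at 0 to 1.36 against 57.5 to 283 CPM. Psmb5 was at 42.0 to 51.8 against 89.8 to 109.5 CPM (log2 1.15) and Gm3375 at 44.6 to 48.7 against 0.34 to 0.74 CPM. The groups did not overlap in any of the 5 genes. On the control diet Ripk3 was at 0 to 1.26 CPM in Ripk3KO and 0.73 to 1.76 CPM in MlklKO livers (edgeR adjusted p = 0.0877), Cebpe at 0 to 4.47 against 3.23 to 9.40 CPM, and Gm43305 at 0.63 to 31.9 against 70.1 to 481.5 CPM. Psmb5 had a log2 difference of 0.98 there, and Gm3375 was at 16.1 to 55.8 against 0.15 to 1.30 CPM. Ripk3KO control replicate 5 stood apart in that group, with 1.26 CPM of Ripk3, 4.47 CPM of Cebpe, 31.9 CPM of Gm43305 and 16.1 CPM of Gm3375. None of the 5 genes had a difference on CD-HFD that was distinguishable from that on either other diet (edgeR interaction adjusted p from 0.525 to 1).

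**Figure D2:**
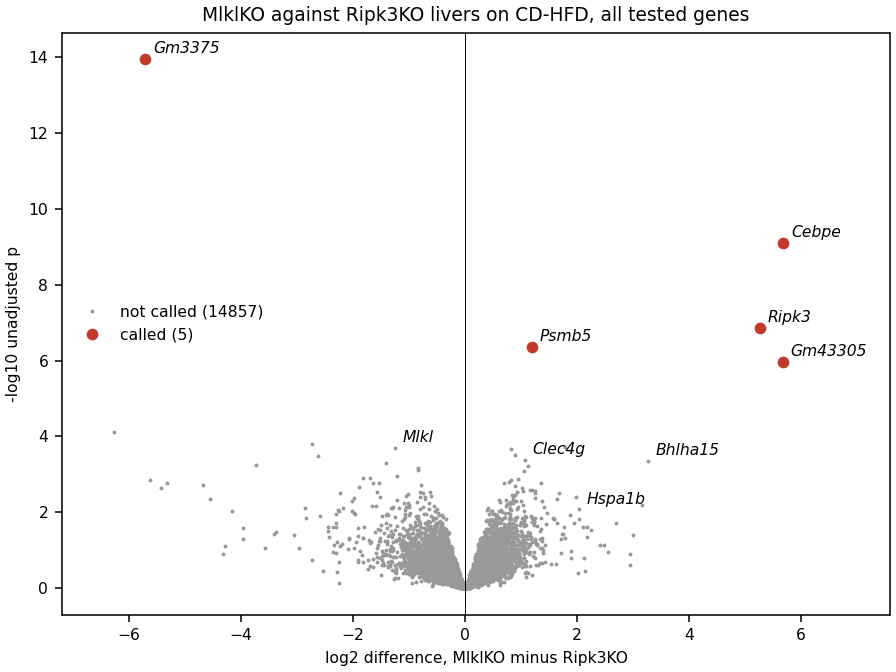
Log2 difference between MlklKO and Ripk3KO livers on CD-HFD (x axis) against -log10 of the unadjusted p (y axis) for all 14862 tested genes. The 5 called genes (red) are apart from the rest, and the grey points named Mlkl, Clec4g, Bhlha15 and Hspa1b did not pass. Fitted differences of genes with few counts in a group, Ripk3 and Cebpe among them, are not measured folds.

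Ripk3, Psmb5, Cebpe and Gm43305 are all on chromosome 14, and the genes beside the 2 targeted loci were therefore read in chromosomal order. Of the 100 tested genes nearest to Ripk3, 50 on each side, 2 were called (Cebpe, 37 tested genes before Ripk3, and Psmb5, 42 before) against 0.0336% of all genes. An unadjusted p under 0.05 was found for 12 of them (12%, against 4% of all genes), 8 with a positive and 4 with a negative difference. Of the 100 tested genes nearest to Mlkl none was called and 3 had an unadjusted p under 0.05, namely Nqo1, Bco1 and Sdr42e1. Groups did not overlap for 21 genes around Ripk3 and 8 around Mlkl, against 10.2% of all genes. Over whole chromosomes, chromosome 14 had the highest share of genes with an unadjusted p under 0.05, 28 of 477 (5.87%). The next was chromosome 1 with 42 of 838 (5.01%). The 28 genes include the 12 neighbours counted above and Ripk3 itself, so the share of chromosome 14 partly repeats the neighbour count.

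Several neighbours of Ripk3 that did not pass in this comparison had separated groups. Ppp1r3e, a glycogen-targeting subunit of protein phosphatase 1, lies 34 tested genes before Ripk3 and was at 1.33, 0.66, 0.96 and 1.71 CPM in Ripk3KO against 3.66, 3.13 and 5.46 CPM in MlklKO livers. Its log2 difference was 1.80 ± 0.44 (SE, edgeR adjusted p = 0.321), it was called by DESeq2 (adjusted p = 0.0476), and it was lower in Ripk3KO than in WT livers (log2 -1.76, edgeR adjusted p = 0.0249). Ebpl, a homologue of a sterol isomerase 44 tested genes after Ripk3, was at 74.6, 78.8, 70.1 and 70.4 CPM in Ripk3KO and 48.0, 46.7 and 29.3 CPM in MlklKO livers (log2 -0.83, edgeR adjusted p = 0.581).

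**Figure D3:**
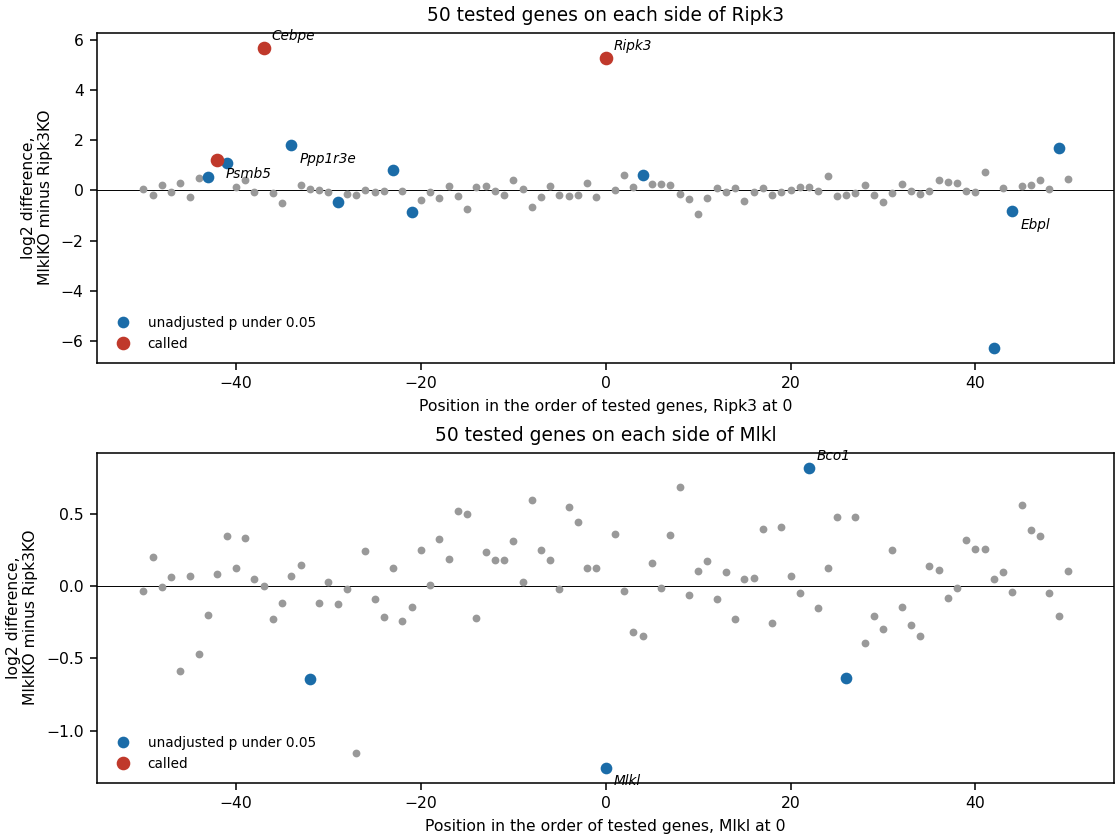
Log2 difference between MlklKO and Ripk3KO livers on CD-HFD for the 50 tested genes on each side of Ripk3 (top) and of Mlkl (bottom), in chromosomal order with the targeted gene at 0. Points with an unadjusted p under 0.05 (blue) or called (red) number 12 beside Ripk3 and 3 beside Mlkl, the targeted genes left aside.

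Below the threshold, 20 further genes were named by a rule: groups that did not overlap, a mean of at least 1 on the log2 CPM scale, an annotated symbol and the smallest unadjusted p. None passed (edgeR adjusted p from 0.321 to 0.896). In 13 of them the MlklKO values lay above and in 7 below those of Ripk3KO, and 3, Ppp1r3e, Ebpl and Dnase1l3, are on chromosome 14. Absolute log2 differences were 0.71 to 1.89.

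Among the 13, Cemip2, a cell surface protein of hyaluronan metabolism, was at 7.99, 6.14, 8.22 and 10.2 CPM in Ripk3KO and 15.7, 12.9 and 14.8 CPM in MlklKO livers. Tie1, a receptor tyrosine kinase of endothelial cells, was at 4.99, 5.81, 8.13 and 8.79 against 15.2, 11.3 and 12.8 CPM. Clec4g, a lectin of liver sinusoidal endothelium, was at 6.66, 12.3, 19.1 and 22.9 against 42.3, 25.2 and 29.9 CPM. In all 3 genes the WT livers reached into the MlklKO range, with highest values of 13.01, 14.3 and 33.3 CPM. Flt4 and Ptprb, a VEGF receptor and a phosphatase of endothelial cells, had log2 differences of 0.78 and 0.71. Hgf, the hepatocyte growth factor, was at 3.50, 3.84, 6.12 and 5.63 CPM in Ripk3KO and 14.4, 6.79 and 16.1 CPM in MlklKO livers. Plk4, the kinase that starts centriole duplication, was at 1.17 to 2.90 CPM in Ripk3KO and 4.70 to 5.46 CPM in MlklKO livers. The others were Ksr1, Tmem39a, Fgd5, Jam2 and Dnase1l3, with log2 differences of 0.83 to 1.21, beside Ppp1r3e above.

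On the other side, Prodh, the first enzyme of proline breakdown, was at 216, 217, 196 and 230 CPM in Ripk3KO and 118, 140 and 105 CPM in MlklKO livers, with WT livers at 92.7 to 146 CPM. Prodh was higher in Ripk3KO than in WT livers (log2 0.84, edgeR adjusted p = 0.0249) and differed from WT by 0.01 in MlklKO livers. Sult1e1, the estrogen sulfotransferase, was at 95.7, 55.6, 64.6 and 85.8 CPM in Ripk3KO and 22.8, 21.7 and 16.8 CPM in MlklKO livers, a log2 difference of -1.89 ± 0.58 (SE, edgeR adjusted p = 0.879). When only these 2 groups were fitted its adjusted p was 0.00341. Cyp4a12a, a fatty acid hydroxylase of male mouse liver, was at 104, 45.5, 38.8 and 61.8 CPM against 13.9, 32.0 and 24.5 CPM. It has a near-identical copy, Cyp4a12b, and reads may be split between them. Oas1c, Csrp3 and Tstd3 had log2 differences of -1.63, -1.21 and -0.79, and Ebpl is given above.

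The genes of the pathway itself were read by role, as a list of 38 cell death genes. Ripk3 was its only called member and the median log2 difference was 0.00, beside 0.01 over all genes. That median ranged from -0.11 (without MlklKO replicate 2) to 0.03 (without Ripk3KO replicate 1) when single libraries were left out, was -0.04 without MlklKO replicate 1 and was 0.06 with scaling by library size alone. In the whole list 3 members had an unadjusted p under 0.05 (4% of all genes), namely Ripk3, Mlkl and Zbp1. Groups were separated for 3 with MlklKO above (5.19% of all genes) and for 7 with MlklKO below (5%), the targeted genes included. Among 8 ligands and sensors, which start the signal, 1 had an unadjusted p under 0.05: Zbp1, at 30.3, 32.5, 41.4 and 36.1 CPM in Ripk3KO and 27.7, 17.9 and 19.2 CPM in MlklKO livers (log2 -0.71 ± 0.35, SE). Both Zbp1 and Fas, a death receptor with a log2 difference of -0.34, had separated groups. Ripk1, the kinase upstream of RIPK3, was at 22.9 ± 3.42 CPM (SD) in Ripk3KO and 30.1 ± 8.42 CPM in MlklKO livers, which overlapped.

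The 9 brakes and branch points, which turn the signal towards apoptosis or survival, had log2 differences from -0.48 (Fadd) to 0.41 (Cflar) and none with an unadjusted p under 0.05. Fadd, the adaptor of caspase-8, was at 9.49, 11.1, 8.04 and 10.2 CPM in Ripk3KO and 8.01, 6.39 and 6.53 CPM in MlklKO livers. Caspase-8 itself (Casp8) was at 37.1 ± 3.27 against 33.7 ± 4.93 CPM. No member passed an unadjusted p of 0.05 among the 7 genes of pyroptosis (-0.56 to 0.63), the 6 of apoptosis (-0.16 to 0.28) or the 5 danger signals released by dying cells (-0.10 to 0.35).

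Of 42 gene lists read in the same way, 28 of pathways and 14 of cell type markers, 2 held a called gene. These were Ripk3, itself a targeted gene, in the cell death list and Cebpe in the list named hepatocyte identity. Cebpe is best known from granulocytes and is a Ripk3 neighbour, so its call is not read as a change in hepatocyte identity. With so few calls the lists are described by counts and medians, which carry no test. Over all tested genes 51.9% had a positive difference, which is the share to set beside the counts of signs below. Fewer cells of a type and less RNA per cell cannot be told apart in such bulk samples.

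**Figure D4:**
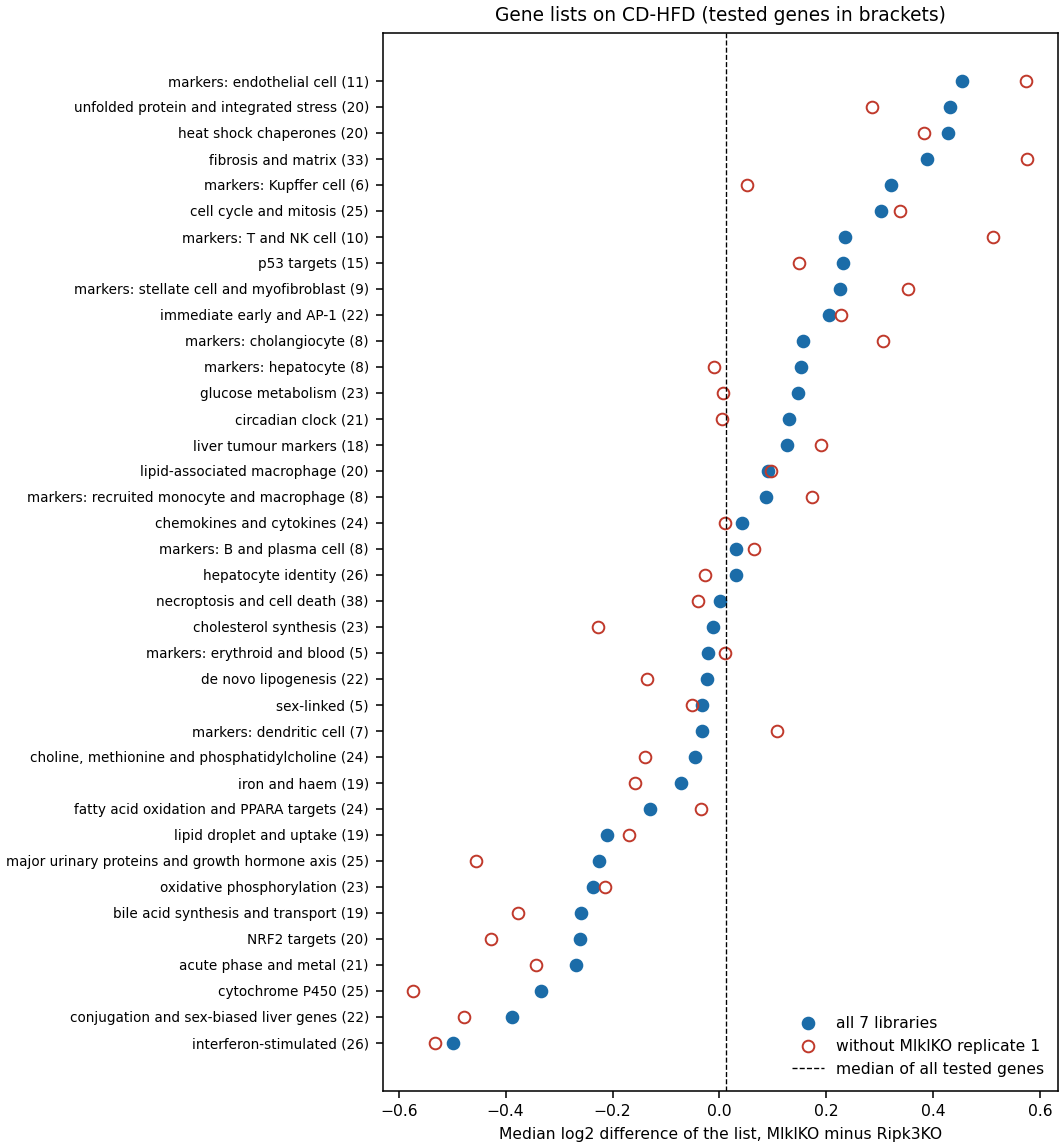
Median log2 difference between MlklKO and Ripk3KO livers on CD-HFD for the gene lists with at least 5 tested members (number in brackets), with all 7 libraries (filled) and without MlklKO replicate 1 (open). The dashed line is the median of all tested genes, 0.01, and the outermost of these lists with all 7 libraries are endothelial markers at 0.45 and interferon-stimulated genes at -0.50.

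Heat shock chaperones, which refold proteins and are induced together by the factor HSF1, had positive differences for 18 of 20 genes, with a median log2 difference of 0.43. An unadjusted p under 0.05 was found for 5 (2.2% of all genes had one in that direction) and groups did not overlap for 8, all with MlklKO above (5.19% of all genes). Hspa8, the constitutive cytosolic HSP70, was at 804, 917, 799 and 670 CPM in Ripk3KO and 1380, 1201 and 1396 CPM in MlklKO livers. Hsph1, an HSP70 exchange factor, was at 25.5, 29.4, 32.4 and 22.0 CPM against 84.8, 35.8 and 93.8 CPM. Hspa1b, an inducible HSP70, was at 8.49, 5.92, 9.09 and 7.42 CPM against 41.3, 17.1 and 37.0 CPM (log2 2.04 ± 0.74, SE, edgeR adjusted p = 1, and 0.007 when only these 2 groups were fitted). Hspa1a is a near-identical copy of Hspa1b, so their counts may be split. In each of the 3 genes MlklKO replicate 2 was the lowest of its group and still above every Ripk3KO liver. Read against WT, the list had a median of -0.17 in MlklKO and -0.50 in Ripk3KO livers, and Hspa1b was lower in Ripk3KO than in WT livers (log2 -3.05, edgeR adjusted p = 0.0316). WT replicate 3 had the highest mean log2 level of the list relative to the 13 CD-HFD libraries, 0.86 against -0.10 to 0.49 in the other WT livers. On the control diet the median between the knockouts was 0.15 and on CD-LFD 0.41. Without MlklKO replicate 1 the median was 0.38 and 3 genes had a positive difference with an unadjusted p under 0.05 (1.64% of all genes then).

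Genes of the unfolded protein and integrated stress responses, which serve protein folding in the endoplasmic reticulum, had positive differences for 19 of 20 members, with a median of 0.43. Of the 20, 3 had an unadjusted p under 0.05 and 7 had separated groups, all with MlklKO above, against 2.2% and 5.19% of all genes in that direction. Bhlha15, a factor of secretory cells, was at 0.999, 0.11, 0.61 and 0.17 CPM in Ripk3KO and 10.1, 1.70 and 1.47 CPM in MlklKO livers. Dnajb9, an endoplasmic reticulum co-chaperone, was at 26.8, 23.4, 27.9 and 28.8 CPM against 105, 35.2 and 50.1 CPM, and Hyou1, another of its chaperones, was at 88.9, 79.3, 108 and 86.2 CPM against 205, 109 and 229 CPM. MlklKO replicate 1 was the highest for the first 2 of these genes, and without it no member had an unadjusted p under 0.05 and the median was 0.29. With CD-LFD the list median was 0.42, and with the control diet 0.27. Bhlha15 was lower in Ripk3KO than in WT livers (log2 -3.26, edgeR adjusted p = 0.0423), a fitted difference that rests on few Ripk3KO counts and is not a measured fold.

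The promoters of Hspa1b and of Hspa5, the central chaperone of the endoplasmic reticulum, are shown because each holds a motif named for the response of its list. Each run is the 250 bases before the gene's start, 5′ to 3′ on the gene's strand, from the RefSeq table of GRCm38.p6. The deposited counts were made on GRCm39 per the submitters' processing notes, so these positions are not those of the counts. Hspa1b lies on the minus strand at chr17:34959239-34959488 and Hspa5 on the plus strand at chr2:34771840-34772089. Capitals mark the heat shock element GAANNTTC, a palindrome, in the first and the endoplasmic reticulum stress element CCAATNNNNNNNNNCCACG in the second, which was searched on both strands.
Hspa1b: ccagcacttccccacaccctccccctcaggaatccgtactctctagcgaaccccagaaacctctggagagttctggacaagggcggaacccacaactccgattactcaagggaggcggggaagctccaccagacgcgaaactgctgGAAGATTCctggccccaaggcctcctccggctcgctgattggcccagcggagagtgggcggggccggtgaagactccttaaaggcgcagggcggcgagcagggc
Hspa5: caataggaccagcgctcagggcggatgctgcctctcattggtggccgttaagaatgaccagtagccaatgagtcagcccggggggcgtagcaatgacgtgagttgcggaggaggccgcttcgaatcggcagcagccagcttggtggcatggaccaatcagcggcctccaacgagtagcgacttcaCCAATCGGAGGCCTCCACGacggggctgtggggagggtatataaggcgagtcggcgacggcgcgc
The first motif was found in 6 of 15 chaperone promoters in the table (40%) and in 6.78% of all 27025. The second was found in 3 of 18 promoters of its list (16.7%) and in 0.122% of all. A match is a description of letters in this window, not of a bound site. Hspa5 was at 553 ± 84.9 CPM (SD) in Ripk3KO and 916 ± 237 CPM in MlklKO livers, with separated groups and an unadjusted p of 0.0513 by edgeR.

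Interferon-stimulated genes, the antiviral programme switched on by interferons, had negative differences for all 26 tested members, with a median of -0.50. An unadjusted p under 0.05 was found for 8, all with the lower mean in MlklKO (1.8% of all genes had one in that direction), and groups did not overlap for 5 (5% of all genes with MlklKO below). None was called. Without the library labelled MlklKO replicate 1 the median was -0.53 and 7 members had a negative difference with an unadjusted p under 0.05 (1.77% of all genes then). Ifit3, an RNA-binding effector, was at 41.5, 29.3, 91.3 and 67.7 CPM in Ripk3KO and 31.0, 23.0 and 27.3 CPM in MlklKO livers. Ifit1, its partner, was at 33.8, 19.5, 60.1 and 43.9 CPM against 22.1, 15.5 and 14.5 CPM. Rsad2, the antiviral enzyme viperin, was at 18.6, 17.1, 67.5 and 33.6 CPM against 16.7, 12.4 and 19.99 CPM. Ripk3KO replicates 3 and 5 were the high libraries in all 3 genes, and Ripk3KO replicate 2 lay within the MlklKO range in each. Ifit3 and Ifit3b are near-identical copies, so their counts may be split.

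Over the whole list, the mean log2 level relative to the 13 CD-HFD libraries was 0.55 and 0.39 in Ripk3KO replicates 3 and 5 and -0.15 and -0.21 in replicates 1 and 2. It was -0.29, -0.35 and -0.37 in MlklKO replicates 1, 2 and 4, and -0.25 to 0.57 in WT livers. The MlklKO livers were thus the 3 lowest of the 13. Against WT, the list median was -0.42 for MlklKO and 0.12 for Ripk3KO livers. On the control diet the median between the knockouts was 0.03 and on CD-LFD -0.31. Summed markers of T and NK cells came to 14.1 to 50.9 CPM in MlklKO and 13.1 to 44.2 CPM in Ripk3KO livers, and those of recruited monocytes and macrophages to 963 to 1577 and 872 to 1271 CPM. Their part in the list's level was not tested.

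The promoters of Ifit1, Ifit3 and Rsad2 are shown because these genes had among the smallest p of the list and hold the motif named for the interferon response. Capitals mark the interferon-stimulated response element, searched as GAAANNGAAA or its reverse complement TTTCNNTTTC. Ifit1 and Ifit3 lie on the plus strand at chr19:34640639-34640888 and chr19:34583279-34583528, and Rsad2 on the minus strand at chr12:26456453-26456702 (RefSeq, GRCm38.p6).
Ifit1: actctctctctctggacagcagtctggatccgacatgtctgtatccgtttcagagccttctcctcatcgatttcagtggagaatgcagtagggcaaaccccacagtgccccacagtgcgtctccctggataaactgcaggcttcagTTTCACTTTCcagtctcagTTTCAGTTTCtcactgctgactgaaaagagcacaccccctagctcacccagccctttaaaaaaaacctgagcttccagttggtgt
Ifit3: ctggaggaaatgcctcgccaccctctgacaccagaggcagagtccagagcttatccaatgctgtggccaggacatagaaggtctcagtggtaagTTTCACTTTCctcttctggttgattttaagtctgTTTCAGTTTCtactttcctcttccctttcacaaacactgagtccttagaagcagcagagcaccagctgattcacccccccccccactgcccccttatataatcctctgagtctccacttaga
Rsad2: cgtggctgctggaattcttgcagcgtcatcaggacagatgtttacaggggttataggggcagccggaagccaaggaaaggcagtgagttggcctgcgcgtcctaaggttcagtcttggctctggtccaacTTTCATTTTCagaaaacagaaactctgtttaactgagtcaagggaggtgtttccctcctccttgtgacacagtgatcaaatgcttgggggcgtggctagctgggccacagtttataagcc
Ifit1 and Ifit3 each held 2 matches and Rsad2 held 1. The motif was found in 13 of the 19 promoters of the list in the table (68.4%) and in 3.04% of all 27025.

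**Figure D5:**
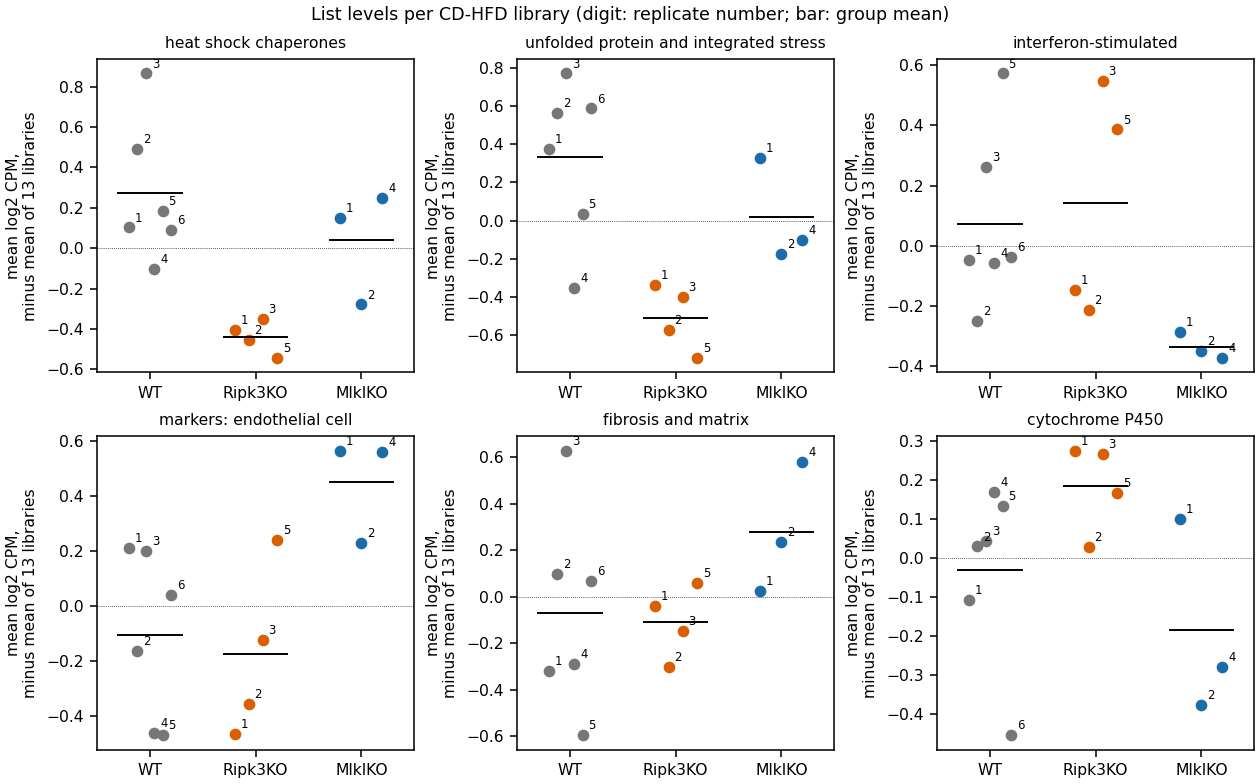
Mean log2 CPM of 6 gene lists in each CD-HFD library, relative to the mean of the 13 libraries (points with replicate numbers, bars at group means). MlklKO replicates sit lowest for interferon-stimulated genes, at -0.29 to -0.37, and the 4 Ripk3KO replicates sit below the 3 MlklKO replicates for heat shock chaperones.

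Markers of endothelial cells, which line the sinusoids, had positive differences for 10 of 11 genes, with a median of 0.45. An unadjusted p under 0.05 was found for 5 and separated groups for 2 (Clec4g and Lyve1), all with MlklKO above, against 2.2% and 5.19% of all genes in that direction. Cdh5, the cadherin of endothelial junctions, was at 4.66, 5.59, 7.69 and 13.1 CPM in Ripk3KO and 22.3, 9.53 and 16.5 CPM in MlklKO livers, so that Ripk3KO replicate 5 overlapped. Kdr, the main VEGF receptor, was at 5.49, 7.13, 12.6 and 14.9 CPM against 22.5, 12.4 and 20.7 CPM. The summed markers were 376 to 396 CPM in MlklKO, 233 to 318 CPM in Ripk3KO and 208 to 353 CPM in WT livers. They moved with Tie1, Flt4 and Ptprb above, and their part in those values was not tested. Without MlklKO replicate 1 the median was 0.57 and 6 genes had a positive difference with an unadjusted p under 0.05 (1.64% of all genes then). With CD-LFD the endothelial median was 0.04, and with the control diet 0.25.

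Genes of fibrosis and matrix had positive differences for 31 of 33 members, with a median of 0.39. Of the 33, 7 had an unadjusted p under 0.05 and 12 had separated groups, all with MlklKO above, against 2.2% and 5.19% of all genes in that direction. Collagens had the highest median by role, 0.56 over 10 genes. Col4a2, of the basement membrane, was at 49.9, 46.9, 69.8 and 68.2 CPM in Ripk3KO and 81.8, 92.4 and 136 CPM in MlklKO livers. Col5a2, of fibrillar matrix, was at 19.6, 19.3, 28.2 and 25.8 CPM against 30.3, 33.3 and 52.6 CPM. Fbn1 and Tnc, a microfibril and a wound matrix protein, had log2 differences of 0.998 ± 0.41 and 0.89 ± 0.38 (SE). None passed (edgeR adjusted p = 1 for all 4). MlklKO replicate 1 was the lowest of its group for Col4a2 and Col5a2, and without it the list median was 0.58, against 0.24 without MlklKO replicate 4. On CD-LFD the median was -0.19 and on the control diet 0.41. Stellate cell and myofibroblast markers, which share collagen genes with the list, summed to 966 to 1330 CPM in MlklKO and 836 to 1041 CPM in Ripk3KO livers. Their part in the matrix genes was not tested.

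Cytochrome P450 genes, which oxidise drugs, steroids and fatty acids, had positive differences for only 5 of 25 members, with a median of -0.33. Among the 25, 5 had an unadjusted p under 0.05 and 4 had separated groups, all with MlklKO below, against 1.8% and 5% of all genes in that direction. Cyp3a25 was at 258, 255, 205 and 253 CPM in Ripk3KO and 117, 168 and 79.8 CPM in MlklKO livers, with WT livers at 88.8 to 320 CPM. Cyp27a1, of the acidic bile acid pathway, was at 332, 346, 322 and 332 CPM against 200, 307 and 201 CPM. Without the library labelled MlklKO replicate 1 the list median was -0.57. Its sign differed with CD-LFD, where it was 0.10, and it was -0.22 with the control diet. NRF2 targets had a median of -0.26 with 4 at an unadjusted p under 0.05 (Gstm3, Gsta2, Nqo1 and Gstm2), all with MlklKO below (1.8% of all genes). Groups were separated for 1 member, Hmox1, with MlklKO above, and for none with MlklKO below (5% of all genes). Without MlklKO replicate 1 the NRF2 list median was -0.43, and 5 members had a negative difference with an unadjusted p under 0.05 (1.77% of all genes then). The median was -0.16 without MlklKO replicate 4 and -0.12 without Ripk3KO replicate 3. Oxidative phosphorylation genes had a median of -0.24 and none at an unadjusted p under 0.05, and the median was -0.39 without MlklKO replicate 2, -0.11 without replicate 4 and -0.21 without replicate 1. Gpcpd1, a glycerophosphocholine phosphodiesterase of choline metabolism, was at 185, 217, 191 and 243 CPM in Ripk3KO and 117, 111 and 123 CPM in MlklKO livers, both above the WT range of 37.7 to 74.9 CPM. It was higher in Ripk3KO than in WT livers (log2 1.77, edgeR adjusted p = 9.29e-05) and not called in MlklKO against WT (0.94, adjusted p = 0.568) or between the knockouts (adjusted p = 1). When only the 2 knockout groups were fitted, its edgeR adjusted p was 0.0461.

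Many lists had no member with an unadjusted p under 0.05, among them the circadian clock, immediate early genes, chemokines and cytokines, lipid-associated macrophage genes, de novo lipogenesis, glucose metabolism, and the markers of Kupffer cells, cholangiocytes, and T and NK cells. The medians of these named lists lay between -0.02 (lipogenesis) and 0.32 (Kupffer cell markers). Several rested on single libraries: the Kupffer median was 0.05 without MlklKO replicate 1 or without Ripk3KO replicate 1 and 0.61 without Ripk3KO replicate 5, and the median of T and NK cell markers, 0.24, ranged from -0.59 without MlklKO replicate 4 to 0.61 without Ripk3KO replicate 5 and was 0.51 without MlklKO replicate 1. Without MlklKO replicate 1 the lipogenesis median was -0.14 and 2 of 22 members had an unadjusted p under 0.05, both with MlklKO below (1.77% of all genes then). The medians of the circadian clock (0.13), glucose metabolism (0.15) and hepatocyte markers (0.15) were 0.01, 0.01 and -0.01 without that library. Other libraries also moved them: without Ripk3KO replicate 1 the glucose metabolism median was 0.01 and that of hepatocyte markers 0.04, and without MlklKO replicate 2 the clock median was 0.04. Kupffer cell markers summed to 123 to 238 CPM in MlklKO and 40.8 to 224 CPM in Ripk3KO livers. A p that misses the threshold does not show that these genes were equal.

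The difference between the knockouts was then compared with that on the other diets. On the control diet 1045 genes (7.03%) were called between MlklKO and Ripk3KO livers and on CD-LFD 9 (0.0606%). These counts come from groups of 6 against 6 and 4 against 3, so they do not compare like with like. The direct test of the change of the difference between CD-HFD and control called 5 genes (0.0336%), and between CD-HFD and CD-LFD it called 0 (edgeR, with 424 genes or 2.85% at an unadjusted p under 0.05, and 2 called by DESeq2).

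Leaving out single libraries gave 2 calls for the interaction with the control diet without MlklKO CD-HFD replicate 4, 8 without Ripk3KO control replicate 4, and 38 without MlklKO control replicate 6. The log2 ratio of Arntl to Dbp was -4.96 to -3.67 in MlklKO and -7.40 to -5.68 in Ripk3KO livers on the control diet, and the same 5 genes were called with that ratio as a covariate.

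In 4 of those 5 genes the MlklKO livers were higher than the Ripk3KO livers on the control diet, with edgeR adjusted p up to 0.00140 for Sult1e1, and none of the 5 was called between the knockouts on CD-HFD. Srxn1, which repairs oxidised peroxiredoxins, had a lowest, median and highest value of 29.5, 399.7 and 618.6 CPM in MlklKO and 23.3, 32.7 and 39.0 CPM in Ripk3KO livers on the control diet. On CD-HFD it was at 132, 97.5 and 99.6 CPM in MlklKO and 102, 83.6, 162 and 95.4 CPM in Ripk3KO livers. Its difference was thus large on the control diet and -0.02 on CD-HFD (interaction -3.53 ± 0.52, SE, edgeR adjusted p = 0.000438). Mrap, an accessory protein of the melanocortin 2 receptor, had 35.8, 240.7 and 307.4 CPM in MlklKO against 38.9, 45.0 and 49.9 CPM in Ripk3KO livers on the control diet, and 16.8 to 23.5 against 26.3 to 28.4 CPM on CD-HFD (interaction -2.67, edgeR adjusted p = 0.00337). Ly6d, a lymphocyte antigen 6 family protein, had 0.30, 15.2 and 37.5 CPM against 0.16, 0.56 and 1.92 CPM on the control diet, and 58.7 to 84.2 against 54.4 to 136 CPM on CD-HFD (interaction -4.94, edgeR adjusted p = 0.00533).

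MlklKO control replicate 6 was the lowest of its group for Srxn1, Mrap and Ly6d and the highest for Sult1e1. Of the 5 genes, Sult1e1 had the difference farthest from 0 on CD-HFD. On the control diet it had a lowest, median and highest value of 1.29, 2.12 and 29.5 CPM in MlklKO and 0.21, 0.45 and 1.26 CPM in Ripk3KO livers, whereas on CD-HFD the Ripk3KO values given above were the greater (interaction -5.36 ± 0.91, SE, edgeR adjusted p = 0.00337). Without MlklKO control replicate 6 the Sult1e1 interaction was -3.62 ± 0.62 (SE, edgeR adjusted p = 0.00196). Smad7, an inhibitor of TGF-beta signalling, went the other way, with 7.44, 9.21 and 10.9 CPM in MlklKO against 12.8, 18.0 and 24.3 CPM in Ripk3KO livers on the control diet. On CD-HFD it was at 21.2, 21.0 and 22.4 CPM in MlklKO and 17.5, 14.3, 9.70 and 16.9 CPM in Ripk3KO livers (interaction 1.54 ± 0.28, SE, edgeR adjusted p = 0.00533). All 5 interaction calls were lost when only the compared groups were fitted (adjusted p from 0.169 to 0.179), and those of Smad7, Ly6d and Mrap without MlklKO CD-HFD replicate 4 (edgeR adjusted p = 0.0544).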

How the data were processed

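Liver RNA was sequenced from strand-specific libraries, per the labels' protocols. The authors deposited raw read counts per Ensembl gene, with no normalization, as 1 table of 35249 genes and 44 libraries. The submitters' processing notes name FastQC, STAR, HTSeq, edgeR, limma and the build GRCm39 (mm39), and the strand setting of the counting is not given in the sources used here. Symbols were matched for 34373 genes, and gene order and promoters came from GENCODE M21 and RefSeq tables of GRCm38.

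Genes were kept by filterByExpr (minimum count 10), which left 14862 with 99.8% of counts. The test was edgeR (4.0.16, in R 4.3.3) quasi-likelihood over all 44 libraries with 1 mean for each genotype and diet group, TMM scaling and Benjamini-Hochberg adjustment at 0.05. It was also run on counts simulated from its own fitted means and dispersions, which cannot show that its model suits these libraries. Each SE is the log2 difference divided by the square root of F. Floors are 3 counts of a group's smallest library and cover counting error only, since reads are not independent molecules.

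Ripk3, Mlkl, called genes, up to 24 genes without overlap of groups (mean log2 CPM of at least 1) and up to 4 genes of each list with the smallest p were named. The members and lists were chosen with earlier results of these data known. Alternatives were scaling by RLE or by library size alone, no filter, DESeq2 (1.42.0), a robust fit, a replicate block, a clock ratio covariate, only the compared groups, and leaving out each library. Some genes are not reported here.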

Additional observations from a re-analysis of the deposited data

Results flagged for a closer look

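Values of the 4 Ripk3KO livers on CD-HFD were checked for a single sample far from the other 3, over the 89 named genes. Chance gives about 1 such case in 20 groups if values are normally distributed, which counts need not be. Several cases would therefore arise by chance among 89 genes. Mir6236 and Gm15564 were among these genes because their values had been seen, so their cases were fixed beforehand. Ripk3KO replicate 1 was far above the others for Mir6236 (1233 CPM, others 2.27 to 17.2), Gm15564 (193.1 CPM, others 0.52 to 3.75), Gm43305 (6.493 CPM, others 0.94 to 1.14), Cyp4a12b (44.78 CPM, others 16.3 to 16.9), Tbx3 (28.14 CPM, others 17.3 to 17.7) and Cebpe (0.4994 CPM, others 0.09 to 0.11, which is 3 counts against 1). Replicate 3 was far from the others for Mlkl (20.46 CPM, others 13.9 to 14.5), Cyp3a25 (204.7 CPM, others 253 to 258) and Gm3839 (1.224 CPM, others 4.35 to 4.50). Replicate 2 was highest for Hspa1a (2.193 CPM, others 1.83 to 1.88).

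A difference between the knockouts that itself differed between CD-HFD and the control diet was found by the edgeR interaction test for Srxn1 (log2 -3.528), Sult1e1 (-5.36), Ly6d (-4.937), Mrap (-2.667) and Smad7 (1.545).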

How the results depend on the processing

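The 5 called genes were called under scaling by RLE or by library size alone, without a count filter, and under a robust fit, the replicate block and the clock ratio covariate. DESeq2 called 9 genes and the fit of only the compared groups called 12, each including the 5. Leaving out each library gave 3 to 6 calls, with 3 without MlklKO replicate 2. The interaction with the control diet called 5 genes, 10 by DESeq2, 0 with only the compared groups, and 2 to 38 without single libraries (2 without MlklKO CD-HFD replicate 4, 8 without Ripk3KO control replicate 4, 38 without MlklKO control replicate 6). That with CD-LFD called 0 genes, 4 without a count filter, 2 by DESeq2, 2 with only the compared groups, and 0 without any single library. Mlkl passed by DESeq2 (log2 -1.28, adjusted p = 0.0428), and its log2 difference ranged from -2.04 to -0.90 without single libraries, passing without MlklKO replicate 1, which is no test because that library was singled out by its Mlkl counts. Of 1391 alternative values for 89 named results none changed direction, 12 lost and 9 gained a call. Library size alone moved the median of all genes in the CD-LFD interaction to 0.19. Of 378 list medians 359 moved by less than the spread between replicates. The cause of these changes was not tested. Only numbers 1 and 2 are shared by both groups, and the deviations of same-numbered libraries correlated at -0.21 and 0.05, so numbers were not treated as pairs. With the replicate block 5, 5 and 0 genes were called in the 3 tests, the same genes as without it. Depth limits genes near the counting floors of the 7 libraries, 0.26 to 0.52 CPM.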
